A study of Mus musculus with 25 samples.

Results

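The genes described here make cholesterol and fatty acids in the liver or control that synthesis. They are 38 of the 15104 genes tested, taken by name: a probe of the array counted as a member when its RefSeq name belonged to a listed gene symbol. Of them, 19 belong to sterol synthesis, 13 to fatty acid and triglyceride synthesis, and 6 are regulators. All 38 had a probe, passed the filter on dim probes, and were well above background on all 25 arrays. Expression was measured in whole liver of female C57BL/6NcrSlc mice with 25 Agilent arrays of 1 colour, each holding the RNA of a different mouse, and the groups had 5 mice each. The controls were untreated mice, whose labels give no injection and no time. The same untreated mice served for both times, so effects of injection cannot be told apart from those of ConA in comparisons with them. The other groups received 10 mg/kg concanavalin A (ConA), which is a lectin from jack bean whose injection leads to T cell-driven hepatitis. After 15 minutes they received vehicle, or BW245C at 1 mg/kg by intraperitoneal injection, and livers were taken at 3 or 24 hr. BW245C activates DP1, through which prostaglandin D2 signals. The series asked how BW245C changes ConA hepatitis. Ages are not given in the sources used here, and mice given BW245C or vehicle without ConA were not analysed here.

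Cholesterol is built from acetyl-CoA through mevalonate, squalene and lanosterol, and fatty acids are built from the same acetyl-CoA through malonyl-CoA. The transcription factor SREBP-2, from Srebf2, mainly drives the sterol genes, while SREBP-1c, from Srebf1, and ChREBP, from Mlxipl, mainly drive the fatty acid genes in liver. SCAP carries the SREBP precursors out of the endoplasmic reticulum for cleavage, and the INSIG proteins hold SCAP back when sterols are plentiful.

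The promoters of 4 members are shown because they differ in the motifs that SREBP and its partner NF-Y are known to bind: the head enzyme of sterol synthesis, the sterol regulator, and the genes of triglyceride and fatty acid synthesis that fell most at 3 hr. Each line gives 150 bases of the RefSeq promoter, 5′ to 3′ on the strand of the gene, from 180 to 31 bases before the start, in build GRCm38.p6, with capitals marking TCACCCCA, the core of the sterol regulatory element, and CCAAT, the NF-Y box, or its reverse complement ATTGG.
Hmgcs1, chr13:119690171-119690320, plus strand: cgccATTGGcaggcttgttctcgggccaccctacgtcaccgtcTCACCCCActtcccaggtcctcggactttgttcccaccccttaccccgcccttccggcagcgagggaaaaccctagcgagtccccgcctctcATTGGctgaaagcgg
Srebf2, chr15:82147089-82147238, plus strand: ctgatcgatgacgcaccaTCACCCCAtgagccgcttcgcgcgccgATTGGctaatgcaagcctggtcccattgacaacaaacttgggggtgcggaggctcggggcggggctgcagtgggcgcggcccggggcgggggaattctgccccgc
Gpam, chr19:55127269-55127418, minus strand: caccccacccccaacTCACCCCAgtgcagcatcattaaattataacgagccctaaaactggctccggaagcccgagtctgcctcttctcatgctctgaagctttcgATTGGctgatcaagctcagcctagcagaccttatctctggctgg
Fasn, chr11:120824578-120824727, minus strand: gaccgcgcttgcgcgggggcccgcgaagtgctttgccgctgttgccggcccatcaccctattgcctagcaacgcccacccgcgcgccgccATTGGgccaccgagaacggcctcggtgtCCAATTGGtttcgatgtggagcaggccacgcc
The core TCACCCCA began 137 bases before the start in Hmgcs1, 162 in Srebf2 and 165 in Gpam, and these letters were not in the Fasn window. The Gpam entry shown was selected for holding the core, so its match was fixed by that choice. Both strands of the 250 bases before the start were searched in 32817 promoters, of which 43 belonged to 32 of the 38 members. The core was in 3 of these 32 genes (9.38%) and in 1.34% of all promoters. The box CCAAT was in 26 of the 32 genes (81.2%), or 27 of the 43 member promoters, and in 33.8% of all promoters. The E-box CACGTG, to which ChREBP-type factors bind, was in 7 of the 32 genes (21.9%), which were Dhcr7, Hsd17b7, Sc5d, Elovl5, Insig1, Scap and Mlxipl. It was in 7 of the 43 member promoters and in 6.02% of all promoters. A longer form of the sterol element, TCACNCCAC, which overlaps the core, was in Hmgcs1 and Mlxipl, 6.25% of the 32 genes. It was in 2 of the 43 member promoters and in 1.05% of all promoters. A match of letters is a description, and binding was not measured.

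Levels below are log2 signal relative to the 75th percentile of the array, in the order of the mouse numbers 1 to 5, and values after ± are standard errors of log2 differences in the limma fit. Calls are at 0.05 for the p adjusted over 15104 genes. Between 52.2% and 61.6% of spots per array were well above background and none was saturated. Slides and groups were not independent: of 5 slides, slides 1 and 2 carried every untreated array and 3 of the ConA + vehicle 3 hr arrays, all 5 of ConA + BW245C at 3 hr were on slide 3, and slides 3, 4 and 5 held all 24 hr arrays but 1. Untreated and ConA + vehicle 24 hr arrays shared no slide. Of 10 hepatocyte markers, 9 had a probe, and these 9 were well above background on all 25 arrays. Their mean difference from untreated was -0.01 to 0.43 on the arrays of ConA + vehicle at 3 hr and -1.06 to -0.59 at 24 hr. Of 8 neutrophil markers 7 had a probe, and their mean difference was 4.12 to 5.21 at 3 hr and 5.20 to 5.62 at 24 hr. Of 7 adipocyte markers, Plin4 and Pparg were well above background on all 25 arrays, Adipoq, Cfd and Retn on 1 or 2, and Lep and Plin1 on none. The mean over Plin4 and Pparg differed from untreated by -0.30 to 0.41 at 3 hr and 0.12 to 0.99 at 24 hr with vehicle. The first untreated mouse had the lowest value of its group in 32 of the 38 members, and leaving it out left the counts of members called against untreated at 36 at 3 hr and 35 at 24 hr with vehicle. The fifth ConA + BW245C 3 hr mouse was lowest of its group in 28 members, the first ConA + vehicle 24 hr mouse lowest in 28, and the third ConA + BW245C 24 hr mouse highest in 33. In whole liver, fewer cells of a type and less RNA per cell cannot be told apart.

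At 3 hr after ConA with vehicle, 36 of the 38 members were lower than in untreated liver and none was higher, while 37.0% of all genes tested were called lower and 62.0% were called in either direction. The 5 ConA arrays did not overlap the 5 untreated arrays for 32 members, all lower, beside 29.2% of all genes. The median difference was -1.11 on the log2 scale over the 38 members and -0.09 over all genes. The exceptions were Acat2, the thiolase that joins acetyl-CoA units (log2 -0.23 ± 0.13, adjusted p = 0.136), and Srebf2 (log2 -0.20 ± 0.17, adjusted p = 0.320). With the slide as a block 35 members were lower, beside 4750 of the 15104 genes. Within slide 1 (1 array against 4) the differences of all 38 members were below 0 (median -1.07), beside 8527 of the 15104 genes. Within slide 2 (2 against 1) those of 37 members were below 0 (median -1.37), beside 8239 genes.

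**Figure D1:**
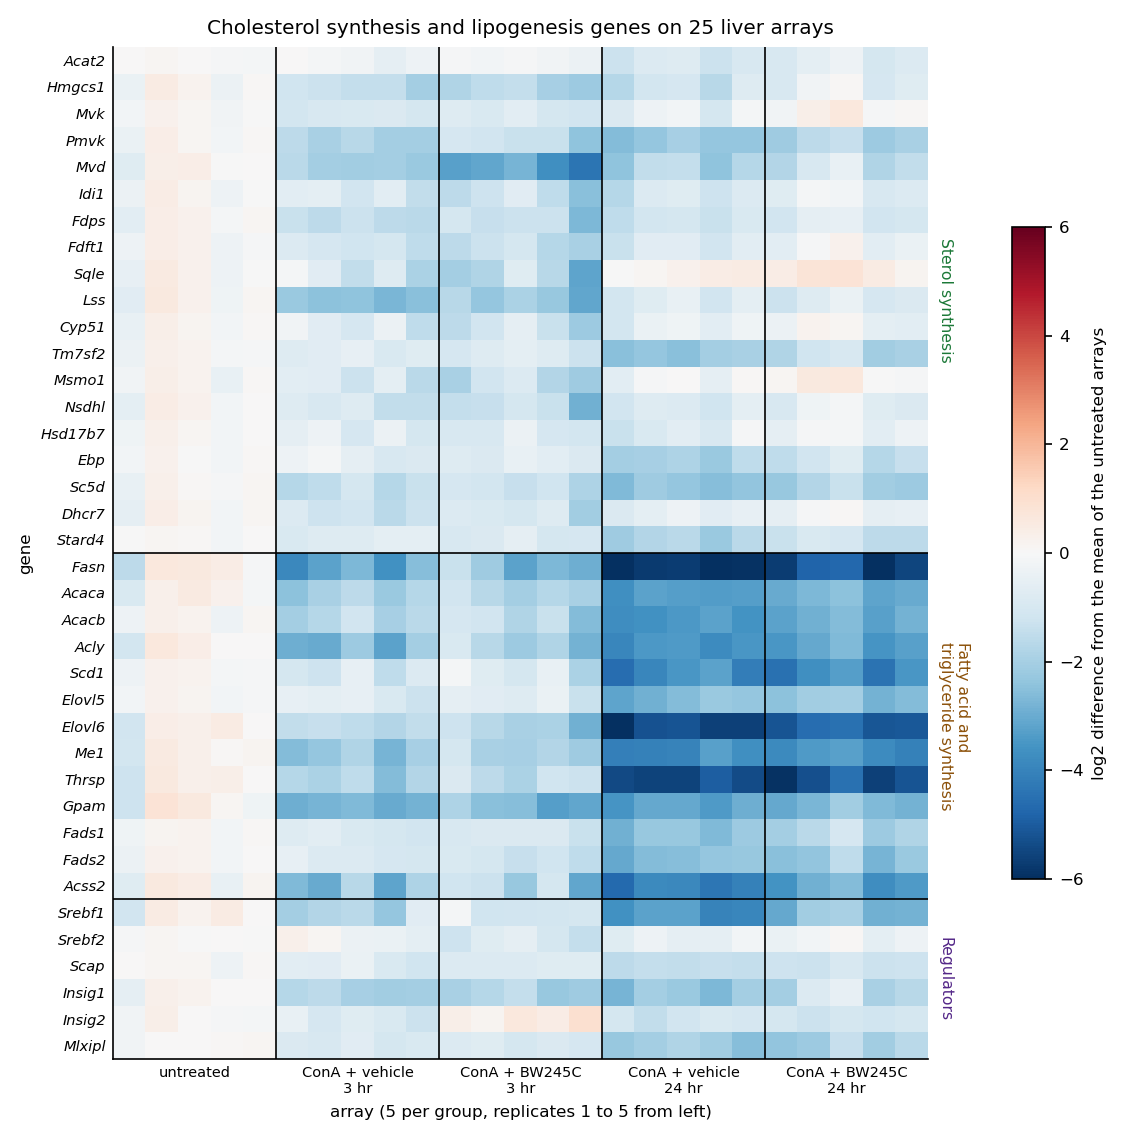
Heat map of the 38 members (rows, in order of sterol synthesis, fatty acid and triglyceride synthesis, and regulators) on the 25 arrays (columns), with colour for the log2 difference from the mean of the 5 untreated arrays. The fatty acid rows are darkest at 24 hr, where Fasn averages -5.98 with vehicle, while the Sqle row is near its untreated level (0.25).

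Sterol synthesis genes fell in 18 of 19 at 3 hr, with a median of -0.99. In the mevalonate segment, from Acat2 to Fdft1, 7 of 8 fell (median -1.29). Sqle and Lss, which turn squalene into lanosterol, both fell, and all 8 enzymes after lanosterol fell (median -0.86, from -1.47 to -0.56). Stard4, a carrier of cholesterol between membranes, was the other sterol gene (log2 -0.71 ± 0.14, adjusted p = 9.61e-05). Lss, lanosterol synthase, fell the most. Its levels were 2.05, 3.29, 2.97, 2.46 and 2.82 in untreated liver and 0.52, 0.28, 0.28, -0.02 and 0.22 at 3 hr, a 5.52-fold decrease (log2 -2.46 ± 0.23, adjusted p = 3.48e-09). Every ConA array lay below every untreated array.

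Mvd, which decarboxylates mevalonate diphosphate, read 1.87, 2.96, 2.99, 2.59 and 2.60 in untreated liver and 0.98, 0.57, 0.53, 0.58 and 0.35 at 3 hr. The groups did not overlap, and the decrease was 3.99-fold (log2 -2.00 ± 0.30, adjusted p = 3.14e-06). Pmvk, phosphomevalonate kinase, fell 3.61-fold (log2 -1.85 ± 0.22, adjusted p = 8.99e-08), and Fdps, farnesyl diphosphate synthase, fell 2.79-fold (log2 -1.48 ± 0.24, adjusted p = 8.82e-06). Sc5d, a late sterol desaturase, fell 2.77-fold (log2 -1.47 ± 0.18, adjusted p = 2.38e-07). Hmgcs1, the HMG-CoA synthase at the head of the pathway, read 6.53, 7.46, 7.19, 6.58 and 7.01 in untreated liver and 5.77, 5.67, 5.55, 5.54 and 4.92 at 3 hr, without overlap and lowest on the fifth ConA array. Its decrease was 2.76-fold (log2 -1.46 ± 0.24, adjusted p = 1.10e-05). Sqle, squalene epoxidase and a control point of the pathway, read 4.06, 5.11, 4.82, 4.27 and 4.52 and then 4.42, 3.89, 3.10, 3.80 and 2.64, so that the ConA arrays spread widely and overlapped the untreated ones. The difference still passed (log2 -0.99 ± 0.33, adjusted p = 0.0135), and it missed the threshold without the fifth ConA array (adjusted p = 0.0544). The early enzymes Mvk (-0.98), Idi1 (-0.89) and Fdft1 (-1.12) fell by intermediate amounts, as did Nsdhl (-1.10), Cyp51 (-0.75), Hsd17b7 (-0.65) and Dhcr7 (-1.23), which trim lanosterol to cholesterol.

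Fatty acid and triglyceride synthesis genes fell in 13 of 13 at 3 hr, with a median of -1.89, and no member's ConA arrays overlapped its untreated arrays. Fasn, fatty acid synthase, read 2.74, 4.94, 4.93, 4.77 and 4.26 in untreated liver and 0.47, 1.10, 1.63, 0.70 and 1.78 at 3 hr. The first untreated mouse was the lowest of its group and still lay above every ConA array. The decrease was 9.15-fold (log2 -3.19 ± 0.39, adjusted p = 1.81e-07), the 98th lowest difference of the 15104 genes. The 3 enzymes that supply acetyl-CoA or reducing power fell together: Acly, ATP citrate lyase (log2 -2.66 ± 0.32, adjusted p = 1.23e-07), Acss2, which activates acetate (log2 -2.48 ± 0.37, adjusted p = 3.50e-06), and Me1, malic enzyme (log2 -2.31 ± 0.26, adjusted p = 6.49e-08). Gpam, which begins glycerolipid synthesis, read -0.05, 2.00, 1.78, 1.32 and 0.93 and then -1.73, -1.59, -1.44, -1.81 and -1.64. All 5 ConA arrays were tightly grouped below the untreated range, and the decrease was 7.15-fold (log2 -2.84 ± 0.29, adjusted p = 1.34e-08). Acaca and Acacb, which make malonyl-CoA for synthesis and for the brake on fatty acid oxidation, fell 3.96-fold (log2 -1.98 ± 0.22, adjusted p = 5.18e-08) and 3.26-fold (log2 -1.70 ± 0.23, adjusted p = 1.06e-06). The 5 enzymes that lengthen or desaturate fatty acids all fell (median -0.91). Among them Scd1, stearoyl-CoA desaturase, fell 2.04-fold (log2 -1.03 ± 0.30, adjusted p = 0.00491), a call lost with the slide as a block (log2 -0.78, adjusted p = 0.104).

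Among the regulators, 5 of 6 fell at 3 hr. Srebf1 read 1.47, 3.10, 2.82, 3.11 and 2.63 in untreated liver and 0.61, 0.85, 1.01, 0.32 and 1.96 at 3 hr, and the fifth ConA array overlapped the lowest untreated array. The decrease was 3.20-fold (log2 -1.68 ± 0.32, adjusted p = 9.67e-05). Insig1 and Insig2, which retain SCAP, fell 3.69-fold (log2 -1.88 ± 0.25, adjusted p = 6.57e-07) and 1.84-fold (log2 -0.88 ± 0.15, adjusted p = 2.40e-05). Scap fell 1.69-fold (log2 -0.76 ± 0.11, adjusted p = 2.21e-06) and Mlxipl 1.85-fold (log2 -0.89 ± 0.15, adjusted p = 2.39e-05). The 9 hepatocyte markers had a median of 0.10 in the same comparison, with 4 called higher and 1 lower (range -0.26 to 0.75). The neutrophil markers had a median of 5.53, with 6 of 7 called higher. Lymphocyte markers were higher in 5 of 7 and lower in 1 (median 0.38), stellate cell markers lower in 4 of 6 (median -0.70) and sinusoidal endothelial markers lower in 3 of 8 and higher in 1 (median -0.46). Kupffer cell markers were lower in 4 of 8 (median -0.71). The part of these lists in the members' decreases was not tested.

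By 24 hr the fatty acid genes stood far lower than at 3 hr, while the sterol genes as a list stood at about the same distance below untreated. Of the 38 members 35 were lower than untreated and none was higher, beside 39.1% of all genes called lower and 29.8% called higher. The arrays did not overlap for 31 members, all lower, beside 36.7% of all genes. The median was -2.04 over the members and -0.08 over all genes. It was -3.61 for the 13 fatty acid genes, all of which fell, and -1.03 for the 19 sterol genes, of which 16 fell. With the slide as a block 30 members were lower, namely 12 sterol genes, all 13 fatty acid genes and 5 regulators, beside 4246 of the 15104 genes. The hepatocyte markers were lower at this time too, in 8 of 9 (median -0.99, from -1.91 to 0.26). Kupffer cell markers were lower in 6 of 8 (median -2.03) and sinusoidal endothelial markers in 5 of 8 with 2 higher (median -0.54), stellate cell markers lower in 3 of 6 (median -0.44), lymphocyte markers higher in 6 of 7 (median 2.27) and neutrophil markers higher in 6 of 7 (median 6.26). The part of these lists in the members' decreases was not tested.

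**Figure D2:**
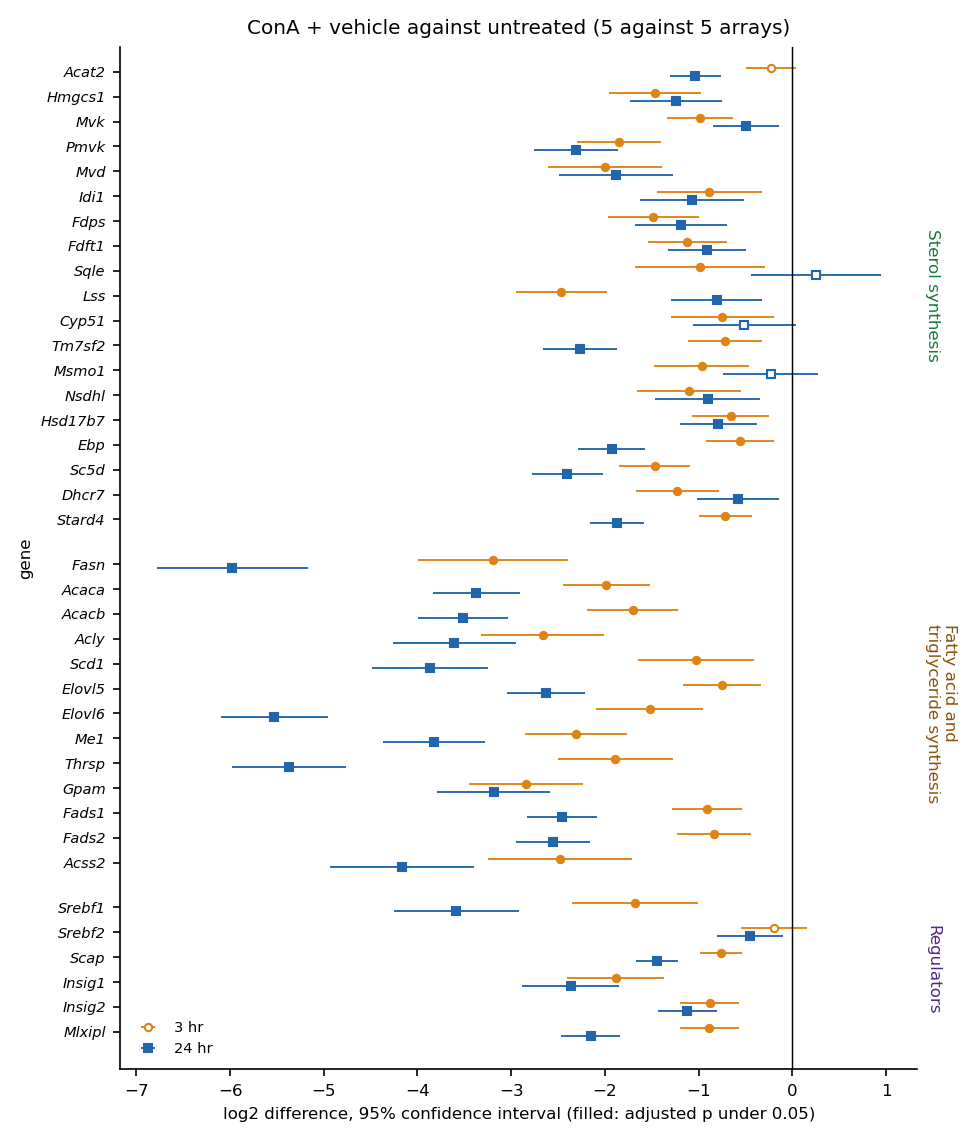
Log2 difference between ConA + vehicle and untreated liver for each member at 3 hr (circles) and 24 hr (squares), with 95% confidence intervals and filled symbols where the adjusted p is under 0.05. Every fatty acid gene lies further left at 24 hr than at 3 hr, whereas Sqle moves from -0.99 to 0.25. Both times share the untreated arrays.

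Fasn was among the most reduced genes of the liver at 24 hr, with the 9th lowest difference of 15104, followed by Elovl6 at 13th and Thrsp at 15th. Fasn read -1.97, -1.43, -1.35, -1.90 and -1.60 at 24 hr, below every 3 hr array, and its decrease from untreated was 63.1-fold (log2 -5.98 ± 0.39, adjusted p = 4.57e-12). Elovl6, which elongates palmitate, read 5.45, 7.0, 6.91, 7.10 and 6.63 in untreated liver and 0.60, 1.37, 1.45, 1.01 and 1.01 at 24 hr. Its decrease was 46.2-fold (log2 -5.53 ± 0.28, adjusted p = 7.70e-14), from a decrease of only 2.87-fold at 3 hr (log2 -1.52 ± 0.28, adjusted p = 4.49e-05). Thrsp, a nuclear protein induced with lipogenesis, read 6.77, 8.61, 8.34, 8.40 and 8.04 in untreated liver and 2.61, 2.47, 2.47, 3.09 and 2.65 at 24 hr. The gap between the groups was wide on every array, and the decrease was 41.4-fold (log2 -5.37 ± 0.30, adjusted p = 3.57e-13). Acss2 fell 17.9-fold (log2 -4.16 ± 0.37, adjusted p = 8.21e-10) and Scd1 14.6-fold (log2 -3.86 ± 0.30, adjusted p = 8.31e-11). Acaca and Acacb fell 10.4-fold and 11.4-fold (log2 -3.37 and -3.51). The desaturases Fads1 and Fads2, which make polyunsaturated fatty acids, fell 5.49-fold and 5.88-fold (log2 -2.46 and -2.56).

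The other fatty acid genes fell as well: Me1 (-3.82), Acly (-3.61), Gpam (-3.19) and Elovl5, an elongase of polyunsaturated fatty acids (-2.63).

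Within the sterol pathway the members split at 24 hr. The largest decreases were in Sc5d (log2 -2.40 ± 0.18, adjusted p = 6.04e-11), Pmvk (log2 -2.31 ± 0.22, adjusted p = 1.97e-09), Tm7sf2, a sterol reductase (log2 -2.27 ± 0.19, adjusted p = 3.35e-10), Ebp, a sterol isomerase (log2 -1.93 ± 0.17, adjusted p = 1.12e-09), and Mvd (log2 -1.88 ± 0.30, adjusted p = 5.87e-06). Tm7sf2 read 6.35, 7.04, 6.95, 6.60 and 6.65 in untreated liver and 4.19, 4.39, 4.22, 4.68 and 4.76 at 24 hr, with all 5 ConA arrays well below the untreated range. Hmgcs1 was 2.36-fold lower (log2 -1.24 ± 0.24, adjusted p = 7.17e-05). The 3 sterol genes that did not pass were Sqle (log2 0.25 ± 0.33, adjusted p = 0.507), the lanosterol demethylase Cyp51 (log2 -0.51 ± 0.27, adjusted p = 0.0919) and the methylsterol oxidase Msmo1 (log2 -0.23 ± 0.24, adjusted p = 0.409). Sqle read 4.53, 4.68, 4.79, 4.99 and 5.06 at 24 hr, inside the untreated range of 4.06 to 5.11 and with less spread than at 3 hr. The remaining sterol genes ran from -1.19 for Fdps to -0.49 for Mvk, and the slide block ended the calls for Mvk, Lss, Nsdhl and Dhcr7. Stard4 was 3.66-fold lower (log2 -1.87 ± 0.14, adjusted p = 3.51e-11) on its brighter probe, and its other probe differed by -0.82.

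All 6 regulators were lower at 24 hr. Srebf1 read -0.98, -0.57, -0.56, -1.40 and -1.28, below every untreated and every 3 hr array, and this was the largest decrease of the 6 (log2 -3.58 ± 0.32, adjusted p = 1.12e-09). Insig1 fell 5.15-fold (log2 -2.36 ± 0.25, adjusted p = 1.50e-08), Mlxipl 4.45-fold (log2 -2.15 ± 0.15, adjusted p = 1.94e-11), Scap 2.72-fold (log2 -1.45 ± 0.11, adjusted p = 5.69e-11) and Insig2 2.18-fold (log2 -1.12 ± 0.15, adjusted p = 7.02e-07). Srebf2 had the smallest difference on the probe used: it read 0.20, 0.37, 0.26, 0.28 and 0.23 in untreated liver and -0.46, -0.06, -0.27, -0.25 and 0.12 at 24 hr (log2 -0.45 ± 0.17, adjusted p = 0.0214). The slide block ended this call (log2 -0.30, adjusted p = 0.341), it was lost without the first ConA + vehicle 24 hr array (adjusted p = 0.0636), and the other Srebf2 probe, of the same transcript, differed the opposite way (1.16), and the direction for Srebf2 at 24 hr depends on the probe.

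The direct comparison of 24 with 3 hr among vehicle-treated mice separated the pathways. Fatty acid genes fell further in 12 of 13 between 3 and 24 hr, with a median of -1.72, and Gpam was the exception (log2 -0.35 ± 0.29, adjusted p = 0.298). Sterol genes rose in 5 and fell in 5 of 19, with a median of 0.20. Over all 38 members 5 were higher and 20 lower, beside 33.2% and 35.3% of all genes. The 5 that rose were Lss (log2 1.66 ± 0.23, adjusted p = 1.28e-06), Sqle (log2 1.24 ± 0.33, adjusted p = 0.00220), Msmo1 (log2 0.74 ± 0.24, adjusted p = 0.0104), Dhcr7, the last reductase of the pathway (log2 0.65 ± 0.21, adjusted p = 0.0101), and Mvk, mevalonate kinase (log2 0.49 ± 0.17, adjusted p = 0.0136). The 5 that fell were Tm7sf2 (log2 -1.55 ± 0.19, adjusted p = 1.58e-07), Ebp (log2 -1.37 ± 0.17, adjusted p = 2.67e-07), Stard4 (log2 -1.16 ± 0.14, adjusted p = 9.31e-08), Sc5d (log2 -0.93 ± 0.18, adjusted p = 9.33e-05) and Acat2 (log2 -0.81 ± 0.13, adjusted p = 9.17e-06). The Stard4 value is from its brighter probe, and over 37 settings it ran from -1.22 to -0.68. Lss read 1.61, 1.98, 2.26, 1.59 and 2.12 at 24 hr, above all 5 arrays of 3 hr, although it remained 1.75-fold below untreated (log2 -0.81 ± 0.23, adjusted p = 0.00417). Hmgcs1 did not pass (log2 0.22 ± 0.24, adjusted p = 0.417). In the slide-block fit 3 members were higher and 19 lower, beside 4745 and 4929 of the 15104 genes. On slide 3 (1 array of 24 hr against 2 of 3 hr) all 13 fatty acid genes were below 0 (median -2.04) and 8 of 19 sterol genes were above 0 (median -0.16). Of the 15104 genes 7826 were below 0 and 7276 above 0 there.

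The largest further decreases were those of Elovl6 (log2 -4.01 ± 0.28, adjusted p = 1.19e-11), Thrsp (log2 -3.48 ± 0.30, adjusted p = 4.07e-10), Scd1 (log2 -2.84 ± 0.30, adjusted p = 1.39e-08), Fasn (log2 -2.78 ± 0.39, adjusted p = 1.07e-06) and Elovl5 (log2 -1.88 ± 0.20, adjusted p = 1.87e-08). Acacb (-1.81) and Acaca (-1.39) fell as well. Of the regulators Srebf1 (log2 -1.91 ± 0.32, adjusted p = 1.58e-05), Mlxipl (log2 -1.26 ± 0.15, adjusted p = 1.20e-07) and Scap (log2 -0.69 ± 0.11, adjusted p = 6.78e-06) fell further. The others did not pass: Srebf2 differed by -0.26, Insig1 by -0.48 and Insig2 by -0.24. The Srebf2 value is from its brighter probe, and over 37 settings it ran from -0.358 to 0.343. Averaged per array, the fatty acid genes minus the sterol genes stood at -0.43 to 0.23 in untreated mice, -1.05 to -0.28 at 3 hr and -2.85 to -2.36 at 24 hr, the last without overlap. All 9 measured hepatocyte markers fell between 3 and 24 hr (median -1.04), and their part in the members' change was not tested.

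**Figure D3:**
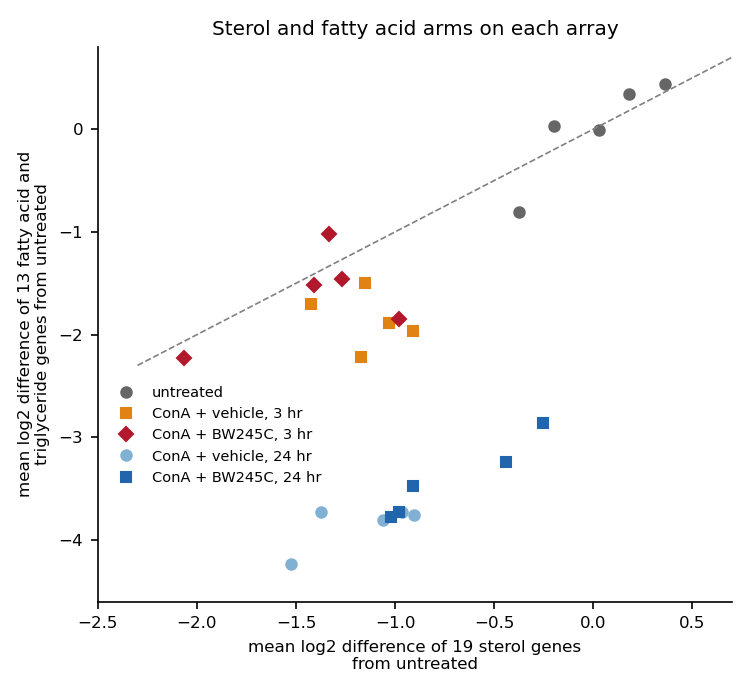
Mean log2 difference from untreated over the 19 sterol genes (horizontal) and the 13 fatty acid and triglyceride genes (vertical), 1 symbol per array, with a dashed line where both are equal. The 24 hr arrays of both treatments lie far below the line, by 2.36 to 2.85 with vehicle and 2.57 to 2.80 with BW245C, and the 3 hr arrays lie between 1.05 below and 0.32 above it.

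BW245C at 3 hr changed few members: Insig2, Srebf2, Mvd and Sqle were called, and with the slide as a block Insig2 alone remained. Against ConA + vehicle, 1 member was higher and 3 were lower, beside 11.8% of all genes called higher and 16.9% lower. The arrays did not overlap for Insig2, higher, and Mvd, lower, beside 3.99% and 9.50% of all genes. The median was -0.02 over the members and -0.04 over all genes. Insig2 was the member that rose. It read 5.48, 4.91, 5.22, 5.05 and 4.64 with vehicle and 6.30, 6.09, 6.59, 6.40 and 6.91 with BW245C, and every BW245C array was above every vehicle array. The increase was 2.63-fold (log2 1.40 ± 0.15, adjusted p = 1.57e-06), or log2 1.55 in the slide-block fit and 1.61 on slide 3 alone. A probe for another Insig2 transcript differed by 1.24. Untreated liver read 5.74, 6.31, 5.99, 5.86 and 5.82, so BW245C livers stood above it on average with overlap (log2 0.51 ± 0.15, adjusted p = 0.00478), while all vehicle livers stood below it. The call against untreated was lost in the slide-block fit (log2 0.67, adjusted p = 0.0590), and these groups shared no slide.

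Mvd fell under BW245C at 3 hr. It read -0.68, -0.51, -0.17, -1.10 and -1.79 with BW245C, against 0.35 to 0.98 with vehicle, a further 2.74-fold decrease (log2 -1.45 ± 0.30, adjusted p = 0.00109). Srebf2 fell 1.74-fold: it read 0.56, 0.37, -0.11, -0.13 and -0.33 with vehicle and -0.96, -0.44, -0.29, -0.78 and -1.16 with BW245C (log2 -0.80 ± 0.17, adjusted p = 0.00160), the vehicle arrays being widely spread, with overlap between the groups. Its other probe differed by -0.94. Sqle read 2.51, 2.75, 3.84, 2.88 and 1.40 with BW245C, lowest on the fifth array and overlapping the vehicle arrays, and passed narrowly (log2 -0.89 ± 0.33, adjusted p = 0.0478). Leaving out any of 18 of the 25 arrays ended the call for Sqle, with adjusted p from 0.0504 to 0.163. With the slide as a block Insig2 alone remained called, with Mvd at log2 -1.12, adjusted p = 0.0559, Srebf2 at log2 -0.47, adjusted p = 0.0900 and Sqle at log2 -0.58, adjusted p = 0.371. Of the 15104 genes 854 were higher and 916 lower in that fit. Using the 7 arrays of slide 3, the call was again Insig2 alone, beside 164 of the 15104 genes higher and 166 lower. The differences there were -1.32 for Mvd, -0.49 for Srebf2 and -0.54 for Sqle. Without the fifth vehicle array 3 members were higher and 6 lower, and without the third BW245C array 1 was higher and 6 lower.

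No fatty acid gene passed at 3 hr, where their median was 0.18 and their differences ran from -0.42 to 0.78. The 5 enzymes that lengthen or desaturate fatty acids had a median of -0.07. For the genes named next, all with differences above 0, the 95% intervals of the log2 differences reach well above 0. Fasn differed by 0.73 (-0.07 to 1.54), Acly by 0.78 (0.12 to 1.43), Acaca by 0.29 (-0.18 to 0.75), Acacb by 0.13 (-0.36 to 0.61) and Scd1 by 0.18 (-0.44 to 0.80). Fasn read 3.00, 2.18, 1.10, 1.64 and 1.42 with BW245C, and the first and second of these arrays lay above all vehicle arrays while the others overlapped them. Of the remaining regulators, Srebf1 differed by 0.75 (0.08 to 1.42, adjusted p = 0.0845, and 0.0170 without the fifth vehicle array), Insig1 by -0.02 (-0.54 to 0.49), Scap by -0.03 (-0.26 to 0.20) and Mlxipl by -0.01 (-0.33 to 0.31). Hmgcs1 differed by -0.32 (-0.81 to 0.18). None of these passed. Hepatocyte markers were called higher in 1 and lower in 2 of 9, and neutrophil markers in none of 7. Kupffer cell markers (median -0.11) and sinusoidal endothelial markers (median 0.34) were called in none of 8 each. Stellate cell markers were higher in 2 of 6 (median 0.11), and lymphocyte markers higher in 2 and lower in 2 of 7 (median 0.18).

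**Figure D4:**
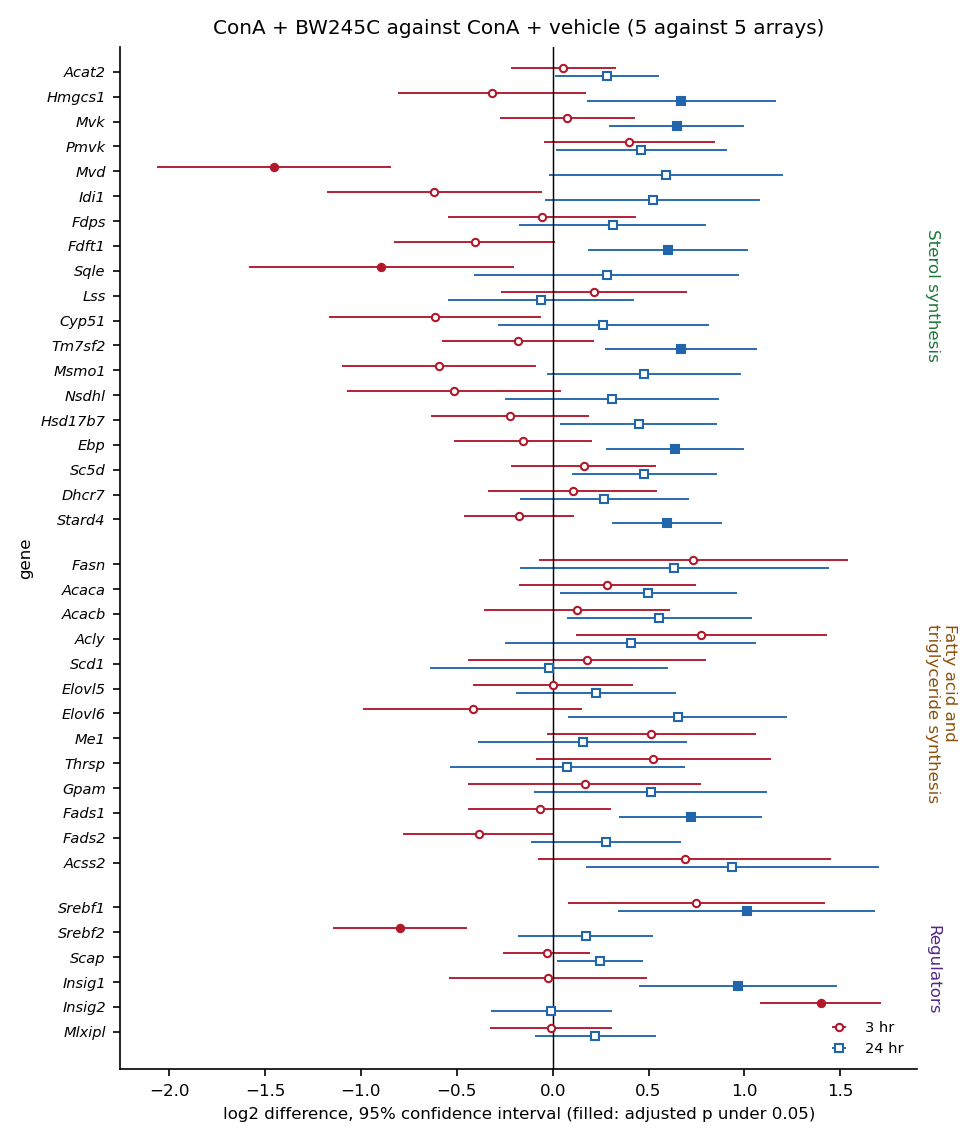
Log2 difference between ConA + BW245C and ConA + vehicle for each member at 3 hr (circles) and 24 hr (squares), with 95% confidence intervals and filled symbols where the adjusted p is under 0.05. At 3 hr the filled circles are Mvd, Sqle, Srebf2 and Insig2, the last alone on the right, and at 24 hr all filled squares lie to the right of 0.

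At 24 hr 9 of the 38 members, 6 of them sterol genes, were called higher and none lower, beside 17.6% and 8.95% of all genes, and 35 of the 38 differences were above 0. The median was 0.47 over the members and 0.01 over all genes. The sterol genes gave 6 of the calls: Hmgcs1 (log2 0.67 ± 0.24, adjusted p = 0.0397), Mvk (log2 0.65 ± 0.17, adjusted p = 0.00690), Fdft1, squalene synthase (log2 0.60 ± 0.20, adjusted p = 0.0309), Tm7sf2 (log2 0.67 ± 0.19, adjusted p = 0.0121), Ebp (log2 0.64 ± 0.17, adjusted p = 0.00894) and Stard4 (log2 0.60 ± 0.14, adjusted p = 0.00268). Fads1 was the only fatty acid gene called (log2 0.72 ± 0.18, adjusted p = 0.00497). Insig1 and Srebf1 were the regulators called. Acat2, Pmvk, Mvd, Idi1, Fdps, Lss, Cyp51, Msmo1, Nsdhl, Hsd17b7, Sc5d and Dhcr7 did not pass, at -0.06 for Lss and from 0.26 for Cyp51 to 0.59 for Mvd.

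Srebf1 read -0.46, 0.56, 0.66, -0.27 and -0.22 with BW245C, above all 5 vehicle arrays. It was 2.02-fold higher (log2 1.01 ± 0.32, adjusted p = 0.0240), a call that was lost without vehicle array 4 or 5 or BW245C array 2 or 3 (adjusted p from 0.0519 to 0.0787), and it remained 5.95-fold below untreated (log2 -2.57 ± 0.32, adjusted p = 4.67e-07). Insig1 read 0.03, 0.78, 0.60, 0.16 and 0.79 with vehicle and 0.82, 2.00, 2.32, 0.88 and 1.17 with BW245C, where arrays 2 and 3 were the highest and no BW245C array was below a vehicle array. The increase was 1.96-fold (log2 0.97 ± 0.25, adjusted p = 0.00611). Stard4 read 1.61, 2.02, 2.12, 1.54 and 2.13 and then 2.41, 2.84, 2.76, 2.21 and 2.20, without overlap, but its other probe differed by -0.10. Hmgcs1 read 5.26, 5.87, 5.93, 5.31 and 6.19 with vehicle and 5.98, 6.76, 7.03, 5.93 and 6.21 with BW245C, and the groups overlapped. The Hmgcs1 call was lost without vehicle array 1 or 4 or BW245C array 2 or 3 (adjusted p from 0.101 to 0.137).

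The other control points of both pathways did not pass at 24 hr. Sqle differed by 0.28 (-0.41 to 0.97), Fasn by 0.63 (-0.17 to 1.44), Acaca by 0.50 (0.04 to 0.96), Acacb by 0.56 (0.07 to 1.04) and Scd1 by -0.02 (-0.64 to 0.60). The regulators Srebf2 (0.17, -0.18 to 0.52), Scap (0.25, 0.02 to 0.47), Insig2 (-0.01, -0.32 to 0.31) and Mlxipl (0.22, -0.09 to 0.54) did not pass either. Leaving out 1 array of another group brought Acaca (adjusted p = 0.0455), Acacb (adjusted p = 0.0251) or Scap (adjusted p = 0.0490) under the threshold. In the slide-block fit 7 members were higher and none lower, beside 2302 and 2026 of the 15104 genes. The calls for Hmgcs1 (log2 0.53, adjusted p = 0.0974) and Fdft1 (log2 0.48, adjusted p = 0.0802) were lost there. On the 7 arrays of slide 4, 31 of the 38 differences were above 0 (median 0.26), beside 7605 of the 15104 genes (median 0.00). No member was called there, beside 212 of the 15104 genes higher and 157 lower, and 6 members and 4364 genes had an unadjusted p under 0.05. Within slide 4 the difference was 0.89 for Srebf1, 0.65 for Insig1 and 0.53 for Stard4. The first vehicle array, lowest of its group in 28 of the 38 members, lay on slide 3, and the third BW245C array, highest of its group in 33, lay on slide 2. Without that vehicle array 7 members were called higher, and without that BW245C array 6, none of them lower. In the same comparison neutrophil markers were lower in 5 of 7 (median -1.71) and hepatocyte markers higher in 3 of 9 (median 0.23). Stellate cell markers were higher in 4 of 6 (median 0.75, against 0.47 for the members), sinusoidal endothelial markers higher in 2 of 8 (median 0.11) and lymphocyte markers lower in 2 of 7 (median -0.12). Kupffer cell markers were called higher in 1 of 8, with a median of 0.47, about that of the members. The part of these lists in the members' difference was not tested.

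The effect of BW245C differed between 24 and 3 hr in 13 members, by the test of that difference in the same fit. It was more positive at 24 hr in 12 and more negative in 1, beside 19.3% and 10.8% of all genes. Insig2 was the member with the more negative effect at 24 hr (log2 -1.40 ± 0.21, adjusted p = 0.000160). It had risen at 3 hr and differed by -0.01 at 24 hr. Mvd had the largest positive difference (log2 2.04 ± 0.42, adjusted p = 0.00157), followed in the sterol pathway by Idi1, which isomerises isopentenyl diphosphate (log2 1.14 ± 0.38, adjusted p = 0.0295), Msmo1 (log2 1.07 ± 0.35, adjusted p = 0.0246), Fdft1 (log2 1.01 ± 0.29, adjusted p = 0.0128), Hmgcs1 (log2 0.99 ± 0.34, adjusted p = 0.0314) and Tm7sf2 (log2 0.85 ± 0.27, adjusted p = 0.0228). Ebp and Stard4 complete the 8 sterol genes, at 0.79 and 0.77. Elovl6 (log2 1.07 ± 0.39, adjusted p = 0.0421) and Fads1 (log2 0.79 ± 0.26, adjusted p = 0.0251) were the fatty acid genes, and Insig1 (log2 0.99 ± 0.35, adjusted p = 0.0383) and Srebf2 (log2 0.97 ± 0.24, adjusted p = 0.00572) the other regulators. Sqle, Fasn, Acaca, Acacb and Scd1 did not pass, at 1.17, -0.10, 0.21, 0.43 and -0.20, and neither did Srebf1, Scap and Mlxipl, at 0.26, 0.28 and 0.23. With the slide as a random block 4 calls remained, and with the slide as a fixed block 2, 1 in each direction: Stard4 at log2 0.87, adjusted p = 0.0475 and Insig2 at log2 -1.66, adjusted p = 0.00224. The Stard4 values are from its brighter probe, and its 2 probes differed in sign for BW245C against vehicle at 24 hr (0.69 apart). In the fixed-block fit 505 of the 15104 genes were more positive and 423 more negative. Leaving out the first vehicle array or the third BW245C array of 24 hr left 8 calls in each case, and leaving out the fifth vehicle array of 3 hr gave 18. Idi1, Ebp and Stard4 were not checked singly with 1 array left out. Of the other called members, Elovl6 (11 of the 25 arrays), Insig1 (10) and Hmgcs1 (8) lost the call without 1 array. Fads1 lost it without the first vehicle array of 24 hr (adjusted p = 0.0523), and Msmo1 without the third BW245C array of 24 hr (adjusted p = 0.0524).

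**Figure D5:**
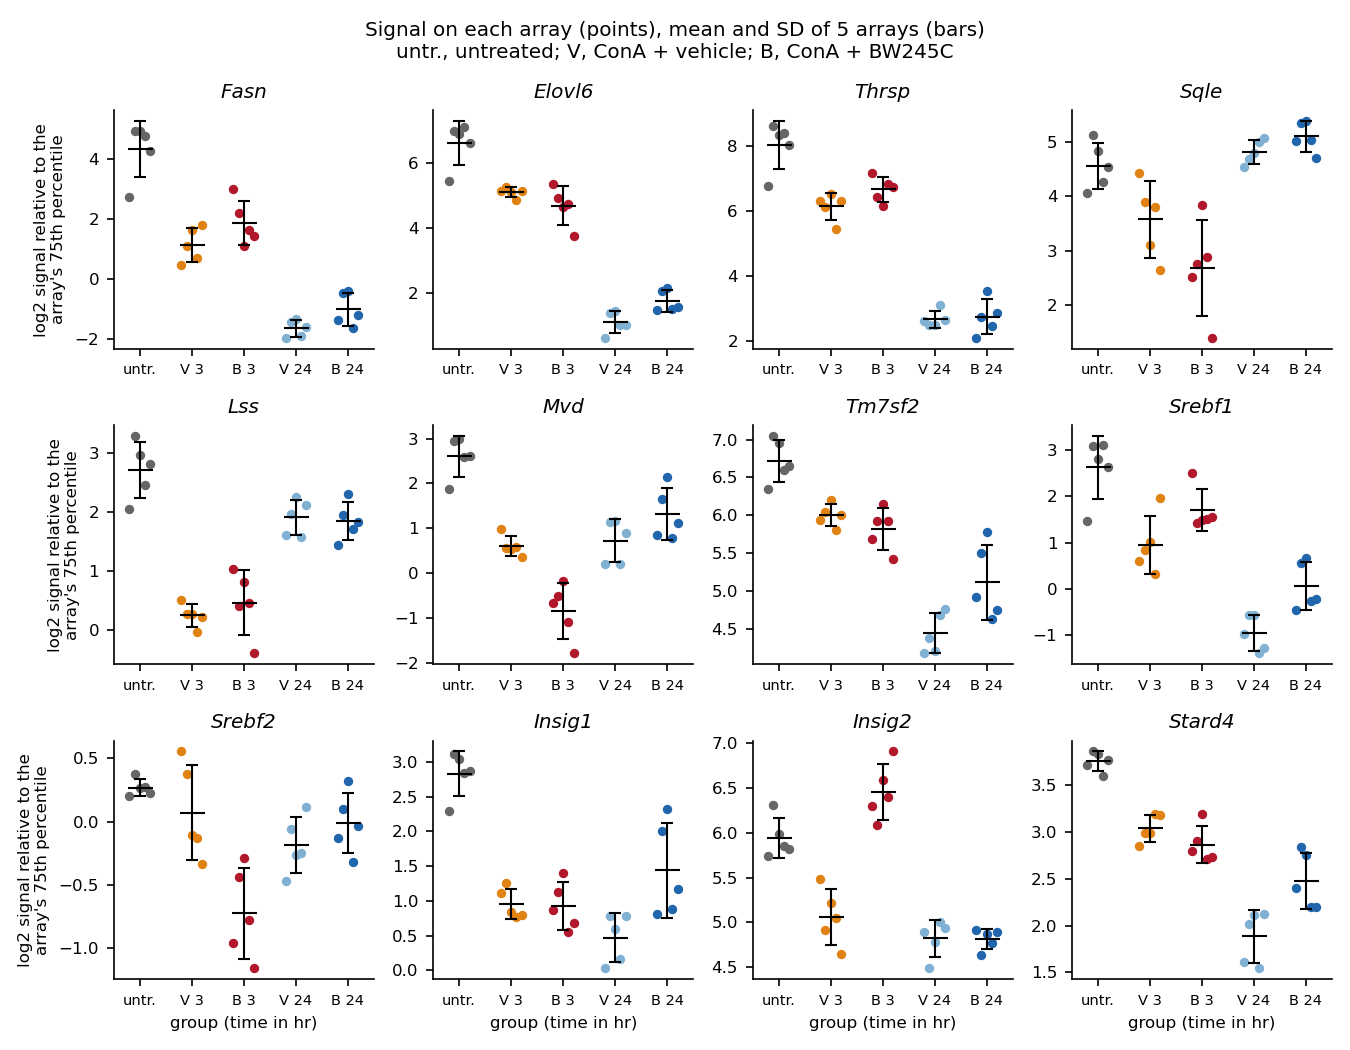
Log2 signal of 12 members relative to the array's 75th percentile, 1 point per array, with the mean and SD of 5 arrays, in untreated liver and in ConA + vehicle (V) and ConA + BW245C (B) at 3 and 24 hr. Insig2 stands highest in ConA + BW245C at 3 hr, where it reads 6.09 to 6.91, and Fasn, Elovl6 and Thrsp lie lower at 24 than at 3 hr in both treatments.

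Set against untreated liver, ConA + BW245C at 3 hr gave 36 members lower and 1 higher, beside 42.3% and 27.0% of all genes. With the slide as a block 20 were lower and none higher, beside 2970 and 2209 of the 15104 genes, and no slide held both groups. Insig2 was the member above untreated, and Acat2 did not pass (log2 -0.17 ± 0.13, adjusted p = 0.249). Mvd stood 10.9-fold below untreated (log2 -3.45 ± 0.30, adjusted p = 8.07e-10), Gpam 6.37-fold (log2 -2.67 ± 0.29, adjusted p = 4.60e-08) and Fasn 5.51-fold (log2 -2.46 ± 0.39, adjusted p = 8.63e-06). Sqle was 3.68-fold lower (log2 -1.88 ± 0.33, adjusted p = 3.68e-05), Hmgcs1 3.44-fold (log2 -1.78 ± 0.24, adjusted p = 8.42e-07) and Srebf2 1.99-fold (log2 -0.99 ± 0.17, adjusted p = 2.28e-05). The slide block ended the Srebf2 call (log2 -0.61, adjusted p = 0.0624) and the Insig2 call. At 24 hr 28 members were lower than untreated and none higher, beside 33.8% and 22.7% of all genes: 10 of 19 sterol genes (median -0.59), 13 of 13 fatty acid genes (median -3.20) and 5 of 6 regulators. Fasn remained 40.6-fold lower (log2 -5.35 ± 0.39, adjusted p = 9.70e-11), Thrsp 39.3-fold (log2 -5.30 ± 0.30, adjusted p = 1.75e-12) and Elovl6 29.4-fold (log2 -4.88 ± 0.28, adjusted p = 2.02e-12). Sqle (log2 0.54 ± 0.33, adjusted p = 0.178), Mvk (log2 0.15 ± 0.17, adjusted p = 0.456) and Msmo1 (log2 0.25 ± 0.24, adjusted p = 0.405) did not pass. Within slide 2 (1 array each) the median of the fatty acid genes was -3.16 and that of the sterol genes -0.59. With the slide as a block 24 members were lower at 24 hr, beside 3155 of the 15104 genes. These comparisons share the untreated arrays with those of vehicle.

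Between 3 and 24 hr with BW245C, 14 members rose and 21 fell, beside 35.8% and 34.3% of all genes. With the slide as a block 7 rose and 17 fell, beside 3928 and 4296 of the 15104 genes. Sterol genes made up 13 of the 14 that rose, led by Sqle (log2 2.41 ± 0.33, adjusted p = 1.15e-06), Mvd (log2 2.16 ± 0.30, adjusted p = 1.00e-06), Msmo1 (log2 1.81 ± 0.24, adjusted p = 8.47e-07), Lss (log2 1.39 ± 0.23, adjusted p = 1.78e-05) and Fdft1 (log2 1.22 ± 0.20, adjusted p = 1.39e-05), and Srebf2 was the other (log2 0.71 ± 0.17, adjusted p = 0.000758). The Srebf2 value is from its brighter probe, and over 37 settings it ran from 0.335 to 1.178. Hmgcs1 rose 2.32-fold (log2 1.21 ± 0.24, adjusted p = 0.000104). Sterol genes that fell were Tm7sf2 (-0.70), Sc5d (-0.61), Ebp (-0.58), Acat2 (-0.58) and Stard4 (-0.39), the 5 sterol genes that fell with vehicle as well. The Stard4 call was lost without BW245C array 3 of 3 hr, or array 4 or 5 of 24 hr (adjusted p from 0.0524 to 0.0580). Over all 37 settings 8 ended it, with log2 from -0.48 to -0.11 and adjusted p up to 0.369. Both Stard4 falls are on its brighter probe, and its other probe is not given between times. Fatty acid genes fell in 12 of 13, led by Thrsp (log2 -3.93 ± 0.30, adjusted p = 9.08e-11), Scd1 (log2 -3.04 ± 0.30, adjusted p = 7.04e-09), Elovl6 (log2 -2.94 ± 0.28, adjusted p = 3.17e-09), Fasn (log2 -2.88 ± 0.39, adjusted p = 8.24e-07) and Me1 (log2 -1.87 ± 0.26, adjusted p = 1.45e-06). Insig2 (log2 -1.64 ± 0.15, adjusted p = 2.55e-09), Srebf1 (log2 -1.65 ± 0.32, adjusted p = 0.000108), Mlxipl (log2 -1.03 ± 0.15, adjusted p = 3.00e-06) and Scap (log2 -0.41 ± 0.11, adjusted p = 0.00214) fell, and Insig1 did not pass (log2 0.51 ± 0.25, adjusted p = 0.0725).

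A further list held 25 other genes of these pathways, all measured, of which 3 were higher and 15 lower at 3 hr after ConA with vehicle (median -0.60), and 2 were higher and 17 lower at 24 hr (median -0.77). Of all genes 37.0% were lower at 3 hr (62.0% in either direction), and 39.1% were lower and 29.8% higher at 24 hr. In the slide-block fit 4 were higher and 13 lower at 3 hr, beside 3383 and 4750 of the 15104 genes. At 24 hr they were 2 and 12, beside 3454 and 4246. The largest decreases at 3 hr were in Scd2, a desaturase (log2 -2.86 ± 0.23, adjusted p = 2.76e-10), Aacs, which activates acetoacetate for lipid synthesis (log2 -2.61 ± 0.25, adjusted p = 3.73e-09), and Mid1ip1, a partner of Thrsp (log2 -2.59 ± 0.30, adjusted p = 7.40e-08). The 3 increases were in Ggps1, which draws farnesyl diphosphate away to geranylgeranyl diphosphate (log2 0.80 ± 0.10, adjusted p = 1.82e-07), Rnf139, a ubiquitin ligase of the endoplasmic reticulum (log2 0.34 ± 0.09, adjusted p = 0.00205), and Nr1h2, a liver X receptor (log2 0.30 ± 0.07, adjusted p = 0.000976). At 24 hr Elovl3, an elongase, had the lowest value (log2 -4.35 ± 0.45, adjusted p = 1.11e-08), but its probe was well above background on 1 of the 5 ConA + vehicle 24 hr arrays, so the size is uncertain. The largest decreases measured on all arrays were in Pklr, liver pyruvate kinase and a ChREBP target (log2 -3.93 ± 0.19, adjusted p = 3.47e-14) and Mid1ip1 (log2 -3.20 ± 0.30, adjusted p = 1.85e-09). Ggps1 (log2 0.25 ± 0.10, adjusted p = 0.0247) and Mbtps2, a protease that cleaves SREBP (log2 0.35 ± 0.12, adjusted p = 0.0153), were higher. Scd2 read 0.51, 1.58, 1.56, 1.17 and 0.98 in untreated liver, -1.99, -1.96, -1.65, -1.89 and -0.99 at 3 hr and 1.41, 1.56, 1.45, 1.13 and 0.76 at 24 hr, so its low values were at 3 hr and the 24 hr arrays overlapped the untreated ones, unlike Scd1.

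With BW245C at 3 hr 4 of these 25 genes were higher and 6 lower than with vehicle, beside 11.8% and 16.9% of all genes. In the slide-block fit 3 were higher and 2 lower, beside 854 and 916 of the 15104 genes. On slide 3 alone 1 was higher, beside 164 genes higher and 166 lower. The largest increases were in Lpin1, a phosphatidate phosphatase (log2 1.32 ± 0.33, adjusted p = 0.00494), Scd2 (log2 0.84 ± 0.23, adjusted p = 0.0105) and Lpcat3, which remodels phospholipids (log2 0.60 ± 0.14, adjusted p = 0.00392), and the largest decreases in Mid1ip1 (log2 -0.79 ± 0.30, adjusted p = 0.0492), Aacs (log2 -0.69 ± 0.25, adjusted p = 0.0428) and Rnf139 (log2 -0.68 ± 0.09, adjusted p = 1.11e-05). The slide block ended the calls for Scd2 (log2 0.63, adjusted p = 0.206), Mid1ip1 (log2 -1.17, adjusted p = 0.0549) and Aacs (log2 -0.36, adjusted p = 0.496). Lpin1 read 2.23, 2.42, 3.35, 1.87 and 2.47 with vehicle and 3.67, 3.64, 3.43, 3.84 and 4.37 with BW245C, higher on every BW245C array. At 24 hr 8 were higher and 1 was lower, beside 17.6% and 8.95% of all genes. In the slide-block fit 5 were higher and 2 lower at 24 hr, beside 2302 and 2026 of the 15104 genes. Elovl3 had the highest value (log2 1.52 ± 0.45, adjusted p = 0.0158), with its probe well above background on 1 of 5 vehicle and 5 of 5 BW245C arrays, so its size is uncertain. Pklr (log2 0.61 ± 0.19, adjusted p = 0.0184, lost in the slide-block fit at adjusted p = 0.0538) and Agpat2, an acyltransferase of triglyceride synthesis (log2 0.53 ± 0.14, adjusted p = 0.00746), had the largest increases measured on all arrays among the called genes, and Pgd, a source of reducing power, was lower (log2 -0.46 ± 0.17, adjusted p = 0.0447).

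Several probes passed the filter for 14 of the 38 members. Between the probes of a gene the differences had the same sign in 13 of the 14 at 3 hr and in 13 at 24 hr after ConA with vehicle, where Srebf2 was the exception each time, and in 12 of the 14 for BW245C against vehicle at each time. The other Srebf2 probe differed by 0.22 at 3 hr after ConA with vehicle. The levels of Srebf2 in every group were near the array's 75th percentile, from 0.20 to 0.37 in untreated liver to -1.16 to -0.29 in ConA + BW245C at 3 hr, and all values were well above background.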

How the data were processed

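Total liver RNA of 25 mice, 5 in each of 5 groups, was hybridised to 25 single-colour Agilent arrays, and each array counted as 1 replicate. The deposited intensity values are processed signals, background-subtracted and detrended by Agilent Feature Extraction 10.7.3.1 per the file headers (9.1 per the submitters' processing notes) and not scaled between arrays. In the authors' series matrix the intensity of each array is multiplied by a factor of its own, by a rule not given in the sources used here. For analysis the log2 of the deposited signal minus the array's 75th percentile over 59305 non-control spots was used. Outlier-flagged spots (3446) were left out and spots of a probe averaged. Probes well above background on at least 5 arrays were kept (33504). RefSeq names gave symbols to 26582 of 55681 probes (29099 had none) and to 19625 kept probes, and the brightest kept probe stood for each of 15104 genes. All 25 arrays were fitted with 1 mean per group in limma 3.58.1 (R 4.3.3, eBayes, Benjamini-Hochberg adjustment over all genes, two-sided). The fit was tested on simulated data with independent noise and no slide effect. That test cannot speak to the overlap of slides and groups. The number of arrays limits the precision.

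Named were 6 regulators, 6 control enzymes (Hmgcs1, Sqle, Fasn, Acaca, Acacb, Scd1), up to 5 called members per pathway, direction and comparison with non-overlapping arrays, the 3 largest changes per direction among 25 related genes, and every member of a count of 5 or fewer. Other members are given after their values were seen. The members, lists and rules were chosen with earlier results of these data known. Alternatives were 13 settings, leaving out each array in turn, and 2 settings added after seeing the data, which used only slide 3 or only slide 4. Replicate numbers did not pair the arrays. Promoters are from RefSeq (GRCm38.p6). Entries were not used for Fads1, Fdft1, Fdps, Scd1, Sqle and Stard4.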

Additional observations from a re-analysis of the deposited data

Results flagged for a closer look

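In 13 of the 190 sets of 5 arrays formed by a member and a group, 1 array lay far from the other 4, where chance gives about 1 in 20. In ConA + BW245C at 3 hr the fifth mouse was low for 5 members: Pmvk at 4.08 (others 5.16 to 5.51), Fdps at 4.57 (5.88 to 6.20), Nsdhl at -0.19 (1.28 to 1.64), Dhcr7 at 0.73 (1.76 to 2.02) and Fads1 at 3.63 (4.04 to 4.12). In the same group the third mouse was high for Hsd17b7 at 1.85 (1.12 to 1.25) and the first was high for Srebf1 at 2.51 (1.43 to 1.56). The first untreated mouse was low for Elovl6 at 5.45 (6.63 to 7.10) and Me1 at 5.50 (6.69 to 7.14). In ConA + vehicle the fifth mouse at 3 hr was low for Hmgcs1 at 4.92 (5.54 to 5.77), and at 24 hr the first was low for Acaca at 2.33 (2.69 to 2.80) and the fourth high for Thrsp at 3.09 (2.47 to 2.65). In ConA + BW245C at 24 hr the third mouse was high for Scap at 5.05 (4.72 to 4.76).

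The effect of BW245C on 13 members differed between 24 and 3 hr by the limma test of that difference. The log2 difference of effects was 0.99 for Hmgcs1 (adjusted p = 0.0314), 2.04 for Mvd (adjusted p = 0.00157), 1.14 for Idi1 (adjusted p = 0.0295), 1.01 for Fdft1 (adjusted p = 0.0128) and 0.85 for Tm7sf2 (adjusted p = 0.0228). It was 1.07 for Msmo1 (adjusted p = 0.0246), 0.79 for Ebp (adjusted p = 0.0203), 0.77 for Stard4 (adjusted p = 0.00647), 1.07 for Elovl6 (adjusted p = 0.0421) and 0.79 for Fads1 (adjusted p = 0.0251). Among the regulators it was 0.97 for Srebf2 (adjusted p = 0.00572), 0.99 for Insig1 (adjusted p = 0.0383) and -1.40 for Insig2 (adjusted p = 0.000160). Every array of ConA + BW245C at 3 hr was on slide 3, and with the slide as a block the calls for Stard4 and Insig2 remained. The Stard4 call is on its brighter probe, and its 2 probes differed in sign for BW245C at 24 hr.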

How the results depend on the processing

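Of 335 checks of the 9 counts of members called under another setting, 323 stayed within 1.5 times the main count. The 13 members whose BW245C effect differed between times became 8 under quantile normalization, 2 with the slide as a fixed block, 4 with it as a random block and 6 with the authors' deposited series matrix values, and ranged from 8 to 18 when 1 array was left out. The 4 calls of BW245C at 3 hr became 1 with the slide as a fixed block, 1 on slide 3 alone, and 3 to 9 when 1 array was left out. The 9 calls of BW245C at 24 hr became 0 on slide 4 alone, and 6 to 13 when 1 array was left out. On slide 4 fewer arrays were fitted and the member median was also smaller (0.26 against 0.47). The 37 calls of BW245C at 3 hr against untreated became 20 with the slide as a fixed block. The causes of these changes were not tested. With 1 array left out, the counts were 34 to 36 and 33 to 35 for ConA with vehicle at 3 and 24 hr, 25 to 26 and 34 to 36 between times with vehicle and BW245C, and 36 to 37 and 27 to 30 for BW245C against untreated at 3 and 24 hr.

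With the mean of both Srebf2 probes, its difference at 24 hr after ConA with vehicle reversed to 0.35 (adjusted p = 0.146). Of the checks on single genes, 155 lost the call and 25 gained it. Of those on the separate counts of sterol genes, fatty acid genes and regulators, 75 moved. Both kinds together had 6991 checks that stayed the same. The Insig2 call for BW245C at 3 hr held in all 38 settings. With the series matrix values the all-gene median shifted by up to 0.45 on the log2 scale (24 against 3 hr with vehicle), where 10 members were higher and 19 lower, against 5 and 20. With the replicate number as a block, which 4 of 25 arrays matched best (median correlation of same-numbered arrays -0.01), the counts were 36, 35, 6 and 10 for ConA with vehicle at 3 and 24 hr and BW245C against vehicle at 3 and 24 hr, 27 and 36 between times, 37 and 30 for BW245C against untreated, and 14 for the difference of effects.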
